A study of Mus musculus with 7 samples.

Results

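The mouse mitochondrial genome is a small circular DNA with 37 annotated genes, of which 33 were in the table of 25467 genes described here. Each gene identifier was matched to its mouse symbol, and every gene whose symbol starts with mt- was taken as a member. These were 13 of 13 mRNA genes, 2 of 2 rRNA genes and 18 of 22 tRNA genes. The tRNA genes mt-Tf, mt-Tk, mt-Ts1 and mt-Td were not analysed here. By annotation, 25 members lie on the plus strand and 8 on the minus strand, the latter being mt-Nd6 and the tRNA genes mt-Tq, mt-Ta, mt-Tn, mt-Tc, mt-Ty, mt-Te and mt-Tp.

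RNA from the medial prefrontal cortex (mPFC) of 7 mice was sequenced, 1 library per mouse. In the TSP1 group, 4 mice were labelled as treated with rhTSP1, recombinant human thrombospondin-1, a secreted matrix protein. The other 3 were labelled PBS, for phosphate-buffered saline, and served as controls. The sources used here state neither genotype, strain, sex or age nor the amount, way or timing of the treatment.

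Mitochondria keep their own genome, which encodes subunits of the respiratory chain complexes and of ATP synthase together with the rRNAs and tRNAs that translate them. Each strand is transcribed as a long precursor, and tRNA sequences that punctuate it are excised, which frees most of the mRNAs and rRNAs between them. Neurons depend strongly on oxidative phosphorylation, and all proteins that copy, transcribe and translate this genome are encoded in the nucleus. Because the mRNAs and rRNAs of 1 strand come from shared precursors, the members are not independent of each other.

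The minus-strand tRNAs below are printed because the tRNA results turn on them. The sequences are GENCODE M21 transcripts (build GRCm38, mitochondrial chromosome, minus strand), written 5′ to 3′ with T for U, and capitals mark the anticodon. mt-Ta (5018 to 5086), mt-Tn (5089 to 5159), mt-Tc (5192 to 5257) and mt-Ty (5260 to 5326) are neighbours in 1 cluster and carry alanine, asparagine, cysteine and tyrosine, while mt-Tp (15356 to 15422) carries proline and stands apart from them.
mt-Ta: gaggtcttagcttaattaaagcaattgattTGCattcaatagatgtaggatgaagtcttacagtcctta
mt-Tn: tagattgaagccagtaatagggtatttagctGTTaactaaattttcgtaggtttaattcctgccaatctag
mt-Tc: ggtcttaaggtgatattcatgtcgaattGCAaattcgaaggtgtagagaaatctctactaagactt
mt-Ty: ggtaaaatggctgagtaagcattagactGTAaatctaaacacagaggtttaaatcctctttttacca
mt-Tp: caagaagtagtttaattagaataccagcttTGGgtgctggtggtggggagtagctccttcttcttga

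The libraries held 15090336 to 20755167 counts. Levels of single genes are given as CPM, counts scaled to a common library size with TMM factors, and levels of different genes are compared only per kilobase of gene length (RPKM). Of the marker lists checked, all 7 neuron and all 6 cortical neuron markers were detected, and their summed levels overlapped between the groups. TSP1 replicate 4 stood apart: all 10 striatal markers were highest there, with a summed level of 625 CPM against 240 to 272 CPM in the other 6 libraries. All 7 oligodendrocyte markers were also highest in that library (8452 CPM against 3086 to 5821 CPM). Their sums were 3086, 3295 and 4319 CPM in TSP1 replicates 1 to 3, below the 4633 to 5821 CPM of the PBS libraries. TSP1 replicate 3 stood apart in 5 blood cell markers, with a summed level of 342 CPM against 43.5 to 123 CPM in the other 6 libraries. The summed level of 7 microglia markers was 312 to 396 CPM with TSP1 and 397 to 458 CPM with PBS, and that of 3 oligodendrocyte precursor markers was 177 to 191 CPM and 205 to 228 CPM. The sums of 5 endothelial markers (171 to 210.5 CPM with TSP1, 209.8 to 252 CPM with PBS) and of 7 astrocyte markers (1947 to 2518 CPM and 2462 to 2725 CPM) overlapped. As mean log2 levels around the mean of all libraries, the endothelial markers did not overlap: at most -0.048 with TSP1 and at least 0.0022 with PBS. In these bulk samples, fewer cells of a type and less RNA per cell cannot be told apart.

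Mitochondrial genes took a smaller share of the counts in every TSP1 library than in any PBS library. The share was 5.21%, 5.96%, 5.996% and 4.70% in TSP1 replicates 1 to 4, and 6.47%, 6.24% and 6.58% in PBS replicates 1 to 3. The means were 5.47% ± 0.625 (SD, n = 4) and 6.43% ± 0.173 (SD, n = 3). The groups did not overlap, and TSP1 replicate 4, the library with the raised striatal and oligodendrocyte markers, was the lowest of the 7. The part that cell makeup has in this difference was not tested.

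All 3 RNA classes showed the same order of groups. The 13 mRNAs together held 4.68%, 5.39%, 5.39% and 4.21% of counts with TSP1, and 5.71%, 5.59% and 5.84% with PBS. The groups did not overlap, the means differed by -0.793 percentage points, and without TSP1 replicate 4 the difference was -0.556. The 2 rRNAs held 0.517%, 0.558%, 0.587% and 0.486% with TSP1 and 0.751%, 0.635% and 0.721% with PBS, again with no overlap. The 18 tRNAs held 0.0117%, 0.0146%, 0.0155% and 0.0127% with TSP1 and 0.0179%, 0.0157% and 0.0179% with PBS, where TSP1 replicate 3 and PBS replicate 2 were level within counting error. The 95% Wilson intervals reached at most 0.0112 percentage points to either side for mRNA, 0.00405 for rRNA and 0.000641 for tRNA. The intervals of the nearest TSP1 and PBS libraries did not overlap for mRNA or rRNA, while for tRNA they did (0.0150% to 0.0161% in TSP1 replicate 3, 0.0151% to 0.0163% in PBS replicate 2).

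**Figure D1:**
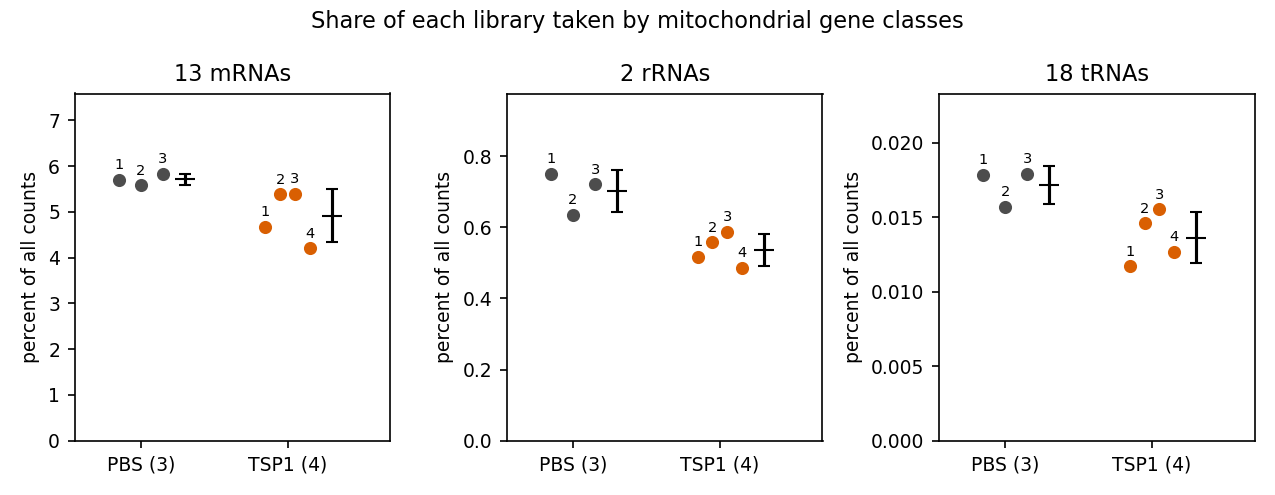
Percent of each library's counts in mitochondrial mRNA, rRNA and tRNA genes, with 1 point per library, and the mean ± SD of 4 TSP1 and 3 PBS libraries. In each of the 3 classes every TSP1 library lies below every PBS library, for tRNA by less than counting error.

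The classes did not separate clearly from one another. The ratios compare counts, and the part of library preparation in the rRNA and tRNA counts was not tested. There were 11.0, 10.4, 10.9 and 11.6 rRNA counts per 100 mRNA counts with TSP1, and 13.2, 11.4 and 12.4 with PBS. The groups overlapped, since TSP1 replicate 4 lay above PBS replicate 2. The tRNAs had 2.51, 2.71, 2.88 and 3.02 counts per 1000 mRNA counts with TSP1 and 3.13, 2.81 and 3.07 with PBS, which also overlapped. The balance of the rRNAs was close in all libraries, with 65.5 to 68.9 mt-Rnr1 counts per 100 mt-Rnr2 counts with TSP1 and 68.2 to 69.1 with PBS.

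Nor did the strands separate. mt-Nd6, the only mRNA gene of the minus strand, had 2.36, 2.30, 2.38 and 2.19 counts per 100 counts of plus-strand mRNAs with TSP1, and 2.49, 2.33 and 2.21 with PBS. These groups overlapped, and so did all minus-strand genes together per 100 plus-strand mRNA counts (2.46 to 2.64 with TSP1, 2.49 to 2.78 with PBS). Among tRNAs the minus strand had 917 to 1105 counts per 100 plus-strand counts with TSP1 and 1017 to 1047 with PBS. Strand here is that of the annotated gene. The sources used here do not say whether reads were counted by strand, so sense and antisense RNA of 1 region cannot be told apart.

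The members differed widely in level. Of the mRNAs, mt-Co1, which encodes the catalytic subunit of cytochrome c oxidase, had the highest mean over the 7 libraries, 13956 RPKM (range 10975 to 16111). It was followed by mt-Cytb of complex III at 7833 RPKM, and by subunits of complex I: mt-Nd1 at 6140, mt-Nd2 at 4644, mt-Nd5 at 3304, mt-Nd4 at 2824 and mt-Nd6 at 2306 RPKM. Each of these 7 lay above the next in all 7 libraries, although the ranges of mt-Cytb and mt-Nd1, of mt-Nd1 and mt-Nd2, of mt-Nd5 and mt-Nd4 and of mt-Nd4 and mt-Nd6 overlapped. The rRNAs mt-Rnr1 (small ribosomal subunit) and mt-Rnr2 (large subunit) had 2575 and 2298 RPKM, and mt-Rnr1 was the higher in all 7 libraries.

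The other 6 mRNAs were listed far lower: mt-Co2 at 215 RPKM, mt-Atp6 at 154, mt-Nd4l at 108, mt-Co3 at 87.1, mt-Nd3 at 75.0 and mt-Atp8 at 9.83. The ranges of neighbours among mt-Co2, mt-Atp6, mt-Nd4l, mt-Co3 and mt-Nd3 overlapped, and mt-Nd4l lay above mt-Co3 in 2 of 7 libraries. These 5 share nearly all of their sequence with the nuclear genome. Of their 50-base stretches, 98.0% to 100% occur without a mismatch in a nuclear transcript, against 62.2% for mt-Nd4, 51.1% for mt-Co1, 8.19% for mt-Nd2, 7.61% for mt-Nd5, 1.04% for mt-Rnr2 and 0 for mt-Cytb, mt-Nd1, mt-Nd6 and mt-Rnr1. Of 100-base stretches, 97.6% to 99.9% were shared for these 5 mRNAs, 60.8% for mt-Nd4 and 30.8% for mt-Co1. The share was 3.19% for mt-Nd2 and 0 for mt-Nd5 and mt-Rnr2. A read from a shared stretch cannot be assigned to 1 place by its sequence. The sources used here do not say how the authors' counting treated such reads. The levels of these 5 mRNAs, which held 0.734% of all mitochondrial mRNA counts, are therefore uncertain, and so, in part, are those of mt-Nd4 and mt-Co1 and their place in the order above. mt-Atp8 shares 43 bases with mt-Atp6, its overlapping neighbour, so its counts can also be split between genes. Only annotated nuclear transcripts were searched. mt-Atp8, mt-Tg and mt-Tr lie between genes whose nuclear copies stand in a row on chromosome 1. Sequence that they share with nuclear DNA outside transcripts was therefore not measured.

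**Figure D2:**
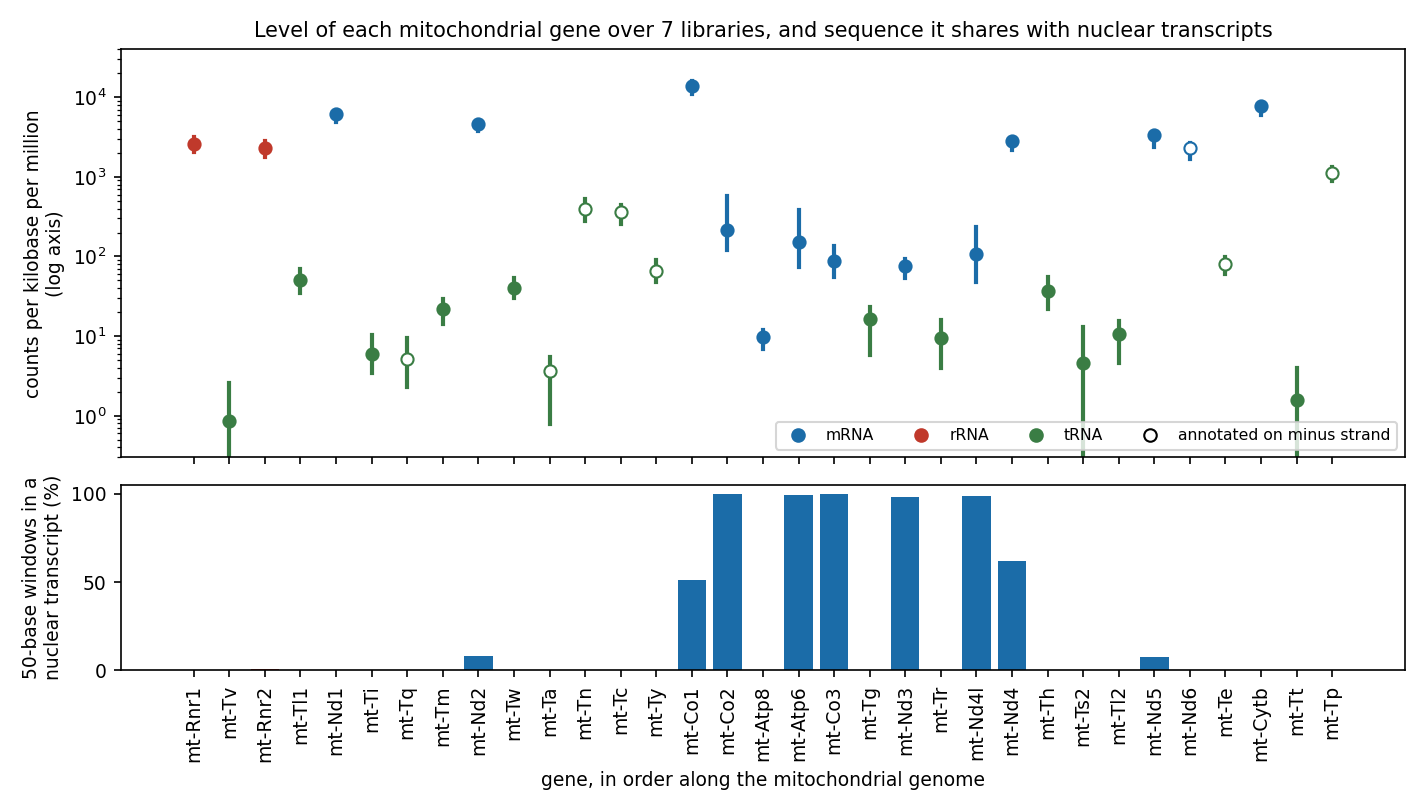
Mean level per kilobase (RPKM, log axis) of each member over 7 libraries, with a line from the lowest to the highest library, in the order of the genes on the mitochondrial chromosome, and below it the percent of its 50-base stretches found in nuclear transcripts; lines that reach the lower edge go to 0, and open points mark the minus strand. mt-Co2, mt-Atp6, mt-Co3, mt-Nd3 and mt-Nd4l, with 98.0% to 100% of stretches shared, have means of 75.0 to 215 RPKM, and mt-Co1 reaches 13956 RPKM.

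The tRNA counts came mainly from genes annotated on the minus strand. Counts in a tRNA gene do not tell mature tRNA from precursor RNA. The 7 minus-strand tRNA genes held 17292 tRNA counts, 90.9% of the total, and the 11 plus-strand tRNA genes held 1730. mt-Tp alone held 49.9%, and mt-Tp, mt-Tn and mt-Tc together 84.0%. Per length, mt-Tp had 1132 RPKM, mt-Tn 395 and mt-Tc 360, followed by mt-Te at 80.4, mt-Ty at 65.6 and mt-Tl1 at 50.5 RPKM. mt-Tn and mt-Tc overlapped in range, with mt-Tn the higher in 5 of 7 libraries. Neighbours in the cluster printed above differed: mt-Ta had 31 counts over all 7 libraries and mt-Tn, the next gene, had 3507. The mt-Ta, mt-Tv, mt-Ti, mt-Tq, mt-Ts2 and mt-Tt genes had 0 to 14 counts per library and did not pass the filter on low counts. In libraries with 0 counts of mt-Tv, mt-Ts2 or mt-Tt, a level of up to 0.143 to 0.198 CPM would still be allowed by 3 counts.

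The filter left 27 members in a test of group over 17211 genes: all 13 mRNAs, both rRNAs and 12 of 18 tRNAs. With edgeR's quasi-likelihood test and Benjamini-Hochberg adjustment, 0 of 27 members passed an FDR of 0.05, as did 0 of all genes tested (0%). The fitted difference was below 0, that is lower with TSP1, for 26 of 27 members, against 48.9% of all genes tested. At an unadjusted p under 0.05, 12 members were lower, against 5.44% of all genes, and 0 were higher, against 4.21% (9.65% of all genes in either direction). For 14 members every TSP1 library lay below every PBS library (5.26% of all genes), and for 0 members every TSP1 library lay above (4.83%). Without TSP1 replicate 4, 9 of 27 members were lower at that unadjusted p (5.41% of all genes). Without PBS replicate 1, 2 or 3 there were 7 of the 28 then tested (4.87%, 4.35% and 3.70%). With library sizes taken from mitochondrial mRNA, which sets the sum of the mRNAs level, 17 of 27 members were below 0 and 1 was lower at that p, against 9.96% and 0.465% of all genes. The median log2 difference was -0.26 over the 27 members, -0.24 over mRNAs, -0.42 over rRNAs and -0.32 over tRNAs, and 0.00 over all genes tested.

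**Figure D3:**
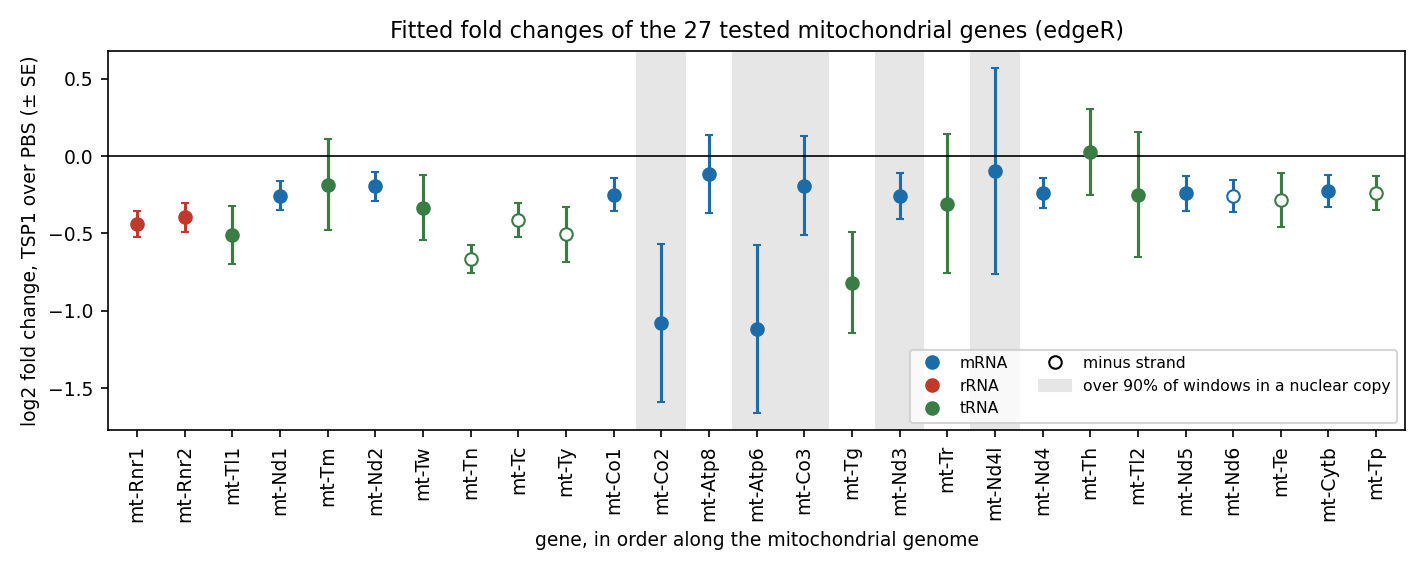
Log2 difference between TSP1 and PBS of the 27 tested members in genome order, as points coloured by class (open for the minus strand) with bars of ± SE, and grey bands on the 5 mRNAs with near-complete nuclear copies. All members except mt-Th lie below 0, and mt-Co2, mt-Atp6 and mt-Nd4l have the widest errors.

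Both rRNAs, the structural and catalytic core of the mitochondrial ribosome, were listed lower in every TSP1 library. mt-Rnr1 (mitochondrial chromosome, 70 to 1024) had 2054, 2224, 2322 and 1931 CPM with TSP1 and 3031, 2635 and 3017 CPM with PBS. Its groups did not overlap, and the highest TSP1 library was below the lowest PBS library. Its log2 difference was -0.44 ± 0.085 (SE), with an edgeR adjusted p of 0.117. mt-Rnr2 (1094 to 2675) had 3090, 3396, 3521 and 2800 CPM with TSP1 and 4416, 3865 and 4364 CPM with PBS, with no overlap either. The log2 difference of mt-Rnr2 was -0.40 ± 0.091 (SE), with an edgeR adjusted p of 0.171. Scaled by mitochondrial mRNA, the values were -0.19 for mt-Rnr1 and -0.15 for mt-Rnr2, where the median of all genes was 0.26.

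Of the 7 abundant mRNAs, 6 had groups that did not overlap, lower with TSP1 (5.26% of all genes). The log2 differences of the 7 lay between -0.26 and -0.20. Across the libraries each of the 7 correlated at 0.975 to 0.993 with their mean, so they do not count as separate results. Without TSP1 replicate 4, mt-Nd5 was at -0.13, mt-Cytb at -0.14, mt-Nd2 at -0.13, mt-Nd4 at -0.16 and mt-Nd6 at -0.16, each smaller by over 1.5 times. mt-Co1 had 18643, 22064, 22114 and 16957 CPM with TSP1 and 23089, 23175 and 24891 CPM with PBS. TSP1 replicate 4 was the lowest, TSP1 replicates 2 and 3 came close to the PBS libraries, and the log2 difference was -0.25 ± 0.106 (SE, edgeR adjusted p = 0.477). mt-Nd1 had 5236, 5847, 5940 and 4673 CPM with TSP1 and 6196, 6580 and 6662 CPM with PBS. It had the smallest p of the mRNAs, with a log2 difference of -0.26 ± 0.092 (SE, edgeR adjusted p = 0.401). mt-Cytb had 8137, 9483, 8952 and 6873 CPM with TSP1 and 9630, 9653 and 9997 CPM with PBS, and the groups again did not overlap. The log2 difference of mt-Cytb was -0.22 ± 0.103 (SE), with an edgeR adjusted p of 0.513.

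The remaining complex I mRNAs gave like values. mt-Nd4 had 3505, 4063, 3866 and 3020 CPM with TSP1 and 4269, 4246 and 4273 CPM with PBS, a log2 difference of -0.24, and no overlap. For mt-Nd5 the levels were 4350 to 6348 CPM with TSP1 and 6351 to 6783 CPM with PBS, so the groups just failed to overlap. For mt-Nd2 they were 3932 to 4982 CPM and 4970 to 5353 CPM, so TSP1 replicate 3 lay above PBS replicate 1. mt-Nd6, the subunit encoded on the other strand, had 1072, 1223, 1246 and 877 CPM with TSP1 and 1372, 1300 and 1289 CPM with PBS. Its log2 difference of -0.26 ± 0.105 (SE, edgeR adjusted p = 0.465) was close to that of mt-Nd1, and its groups did not overlap. Across the 27 tested members, TSP1 replicate 4 was the lowest library for 16 and TSP1 replicate 1 for 9, while PBS replicate 3 was the highest for 13 and PBS replicate 1 for 8.

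**Figure D4:**
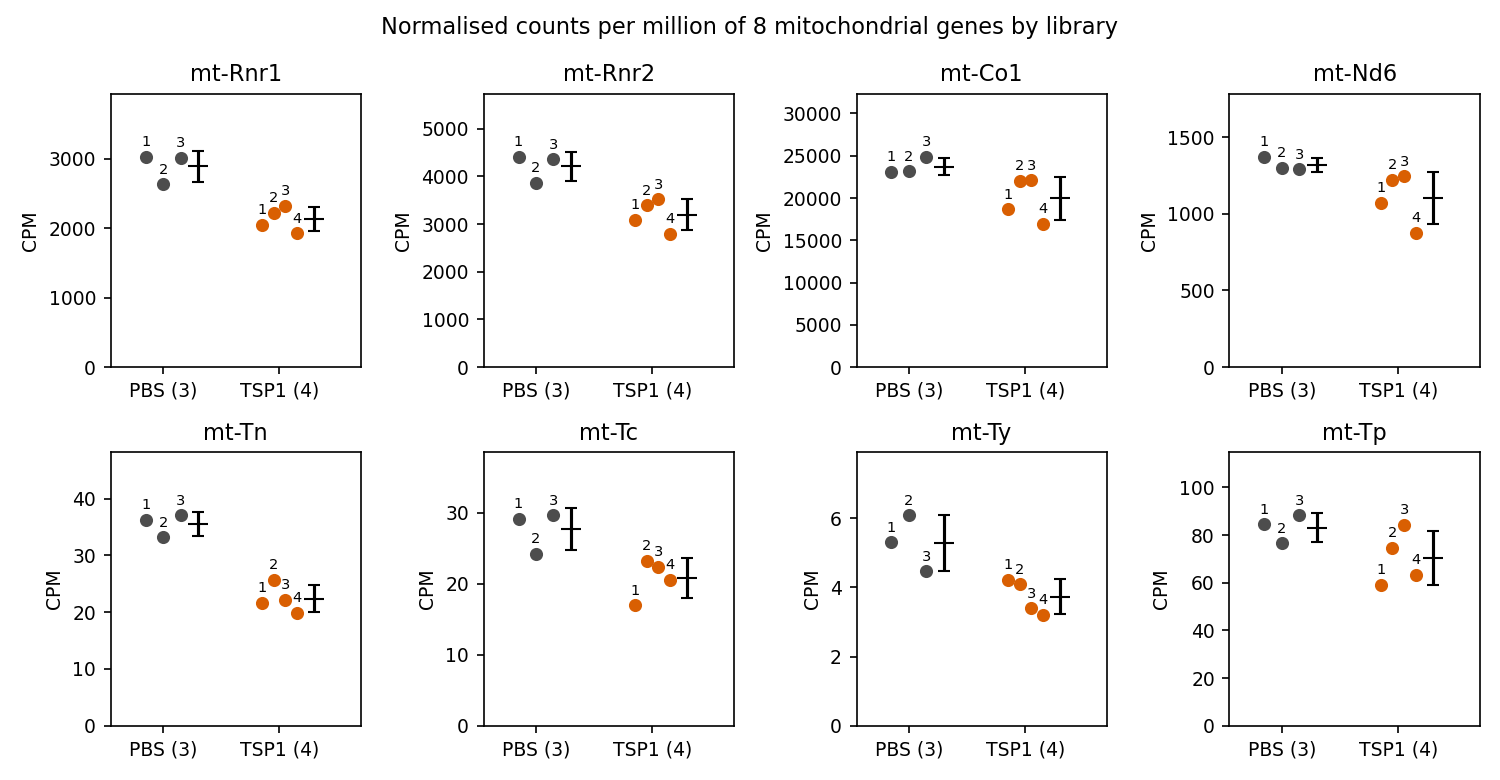
CPM per library, with 1 point each for 4 TSP1 and 3 PBS libraries, and the mean ± SD of the group, for mt-Rnr1, mt-Rnr2, mt-Co1, mt-Nd6 and 4 minus-strand tRNAs. The tRNAs shown were picked for most counts or for no overlap between groups. Of these 8 genes, only mt-Tp has a TSP1 library within the range of PBS. Over all 27 tested members the groups did not overlap for 14, lower with TSP1 (5.26% of all genes).

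The mRNAs with near-complete nuclear copies had wider errors than the abundant mRNAs, and in mt-Co2, mt-Atp6 and mt-Nd4l single libraries lay far from the rest. mt-Co2, a cytochrome c oxidase subunit, had 93.2, 108, 114 and 82.8 CPM with TSP1 and 395, 119 and 116 CPM with PBS. PBS replicate 1 was far above the other 6 libraries: the log2 difference was -1.08 ± 0.513 (SE, edgeR adjusted p = 0.596) and -0.23 without that library. mt-Atp6, of ATP synthase, had 72.1, 62.6, 77.7 and 66.5 CPM with TSP1 and 140.0, 50.3 and 264 CPM with PBS. Here PBS replicate 3 was the highest and PBS replicate 2 the lowest of all, and the log2 difference of -1.12 ± 0.543 (SE, edgeR adjusted p = 0.603) was -0.45 without PBS replicate 3. mt-Nd4l, of complex I, had 14.1, 69.1, 23.3 and 17.4 CPM with TSP1 and 31.7, 22.4 and 46.2 CPM with PBS. TSP1 replicate 2 was the highest, and the log2 difference of -0.10 ± 0.667 (SE, edgeR adjusted p = 0.978) was -0.86 without it. mt-Co3 and mt-Nd3 overlapped between the groups, with log2 differences of -0.19 and -0.26.

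The nuclear copies themselves were counted. Among the nuclear genes with counts here, 11 were near-identical to a mitochondrial gene. Of these 11, 7 lie in a row on the minus strand of chromosome 1 (24611535 to 24616197, GRCm38). They match mt-Nd4 (Gm28439), mt-Nd4l (Gm10222), mt-Nd3 (Gm28438), mt-Co3 (Gm28437), mt-Atp6 (Gm10925), mt-Co2 (Gm28661) and mt-Co1 (Gm29216). Over their aligned lengths 5 of the 7 are identical to the mitochondrial gene, and the other two have 1 mismatch each, in 345 aligned bases for mt-Nd3 and in 483 for mt-Co1. The stretches around these mismatches are printed because they show how little sequence separates member and copy. They are GENCODE M21 transcript sequences, 5′ to 3′, with the mismatch in capitals, from the mitochondrial chromosome at 9459 to 9491 (mt-Nd3) and 6390 to 6423 (mt-Co1), and from the minus strand of chromosome 1 at 24613087 to 24613119 (Gm28438) and 24616155 to 24616188 (Gm29216).
mt-Nd3: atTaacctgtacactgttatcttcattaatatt
Gm28438: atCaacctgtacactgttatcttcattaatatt
mt-Co1: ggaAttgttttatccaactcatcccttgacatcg
Gm29216: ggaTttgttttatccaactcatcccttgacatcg

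All 7 chromosome 1 copies had their highest level in PBS replicate 1. Together they took 0.0241%, 0.0280%, 0.0320% and 0.0226% of counts with TSP1 and 0.0495%, 0.0269% and 0.0299% with PBS, and the groups overlapped. PBS replicate 1 was also the library that set mt-Co2 apart, and the part of the copies in that value was not tested. Gm10925 held 14381 counts over the libraries against 12992 of mt-Atp6, the gene it copies. Gm29216 held 3774 against 2689248 of mt-Co1, or 60.2 against 13956 RPKM per length. Gm29216 and Gm28439 are partial copies, aligned over 483 of the 1545 bases of mt-Co1 and 876 of the 1378 bases of mt-Nd4. The counts of each copy were also added to the member it matches best, a choice made after seeing the data. The log2 difference was then -0.92 for mt-Co2 and -0.80 for mt-Atp6. In that fit 12 of 27 members were again lower at an edgeR unadjusted p under 0.05 (5.44% of all genes).

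**Figure D5:**
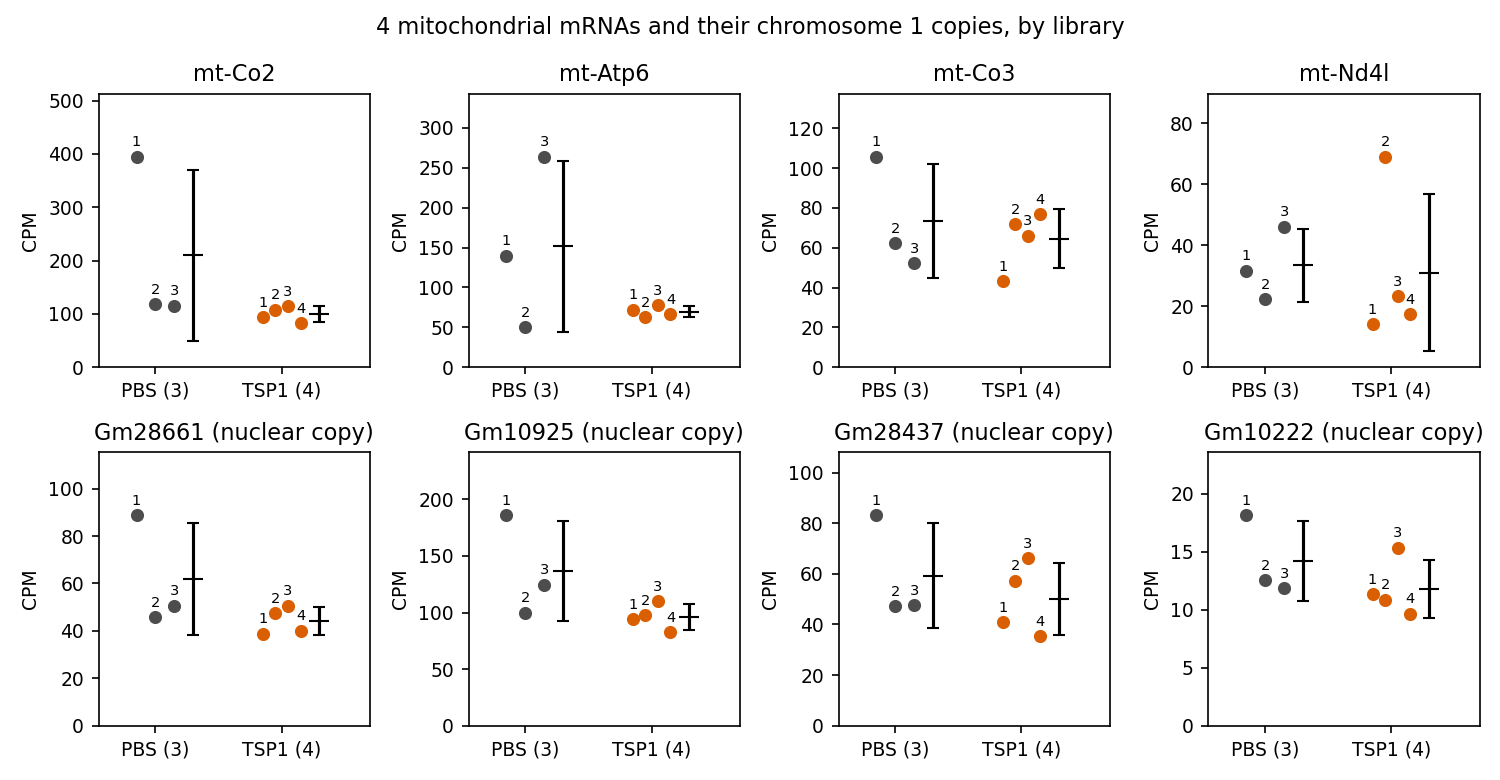
CPM in each of the 7 libraries of 4 mitochondrial genes (mt-Co2, mt-Atp6, mt-Co3 and mt-Nd4l) and of the nuclear genes on chromosome 1 that copy them, with the mean ± SD of each group. All 4 copies shown are highest in PBS replicate 1, as are mt-Co2 and mt-Co3, while mt-Atp6 is highest in PBS replicate 3 and mt-Nd4l in TSP1 replicate 2.

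Among the tRNAs, mt-Tn (asparagine) had the largest log2 difference for its error. It had 21.7, 25.7, 22.2 and 19.9 CPM with TSP1 and 36.3, 33.2 and 37.1 CPM with PBS. The highest TSP1 library was below the lowest PBS library, and the log2 difference was -0.67 ± 0.090 (SE, edgeR adjusted p = 0.0536), above the threshold. Relative to mt-Co1, mt-Tn also separated the groups: it had 1.16, 1.17, 1.00 and 1.18 counts per 1000 mt-Co1 counts with TSP1 and 1.57, 1.43 and 1.49 with PBS. Per 100 mt-Rnr1 counts it had 1.06, 1.16, 0.957 and 1.03 with TSP1 and 1.20, 1.26 and 1.23 with PBS, with no overlap. Both ratios were compared as values, with no test. mt-Tn holds no 50-base stretch found in an annotated nuclear transcript. Nuclear sequence outside annotated transcripts was not searched. This includes the stretch between the chromosome 2 copies of mt-Nd2 (Gm13339) and mt-Co1 (Gm13340), the mRNA genes on either side of the mt-Tn cluster.

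mt-Tc (cysteine), from the same cluster, had 17.0, 23.2, 22.4 and 20.5 CPM with TSP1 and 29.1, 24.2 and 29.6 CPM with PBS. Its groups did not overlap, and its log2 difference was -0.41 ± 0.109 (SE, edgeR adjusted p = 0.256). Per 1000 mt-Co1 counts, mt-Tc had 0.909 to 1.21 counts with TSP1 and 1.05 to 1.26 with PBS, which overlapped, unlike mt-Tn. Per 100 mt-Tc counts there were 128, 111, 99.3 and 97.1 mt-Tn counts with TSP1 and 125, 137 and 125 with PBS, so TSP1 replicate 1 fell within the PBS range. mt-Ty (tyrosine), the third of the cluster with a test, had 4.22, 4.09, 3.40 and 3.21 CPM with TSP1 and 5.30, 6.09 and 4.46 CPM with PBS, with no overlap. Its log2 difference was -0.51 ± 0.177 (SE, edgeR adjusted p = 0.386).

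mt-Tp (proline), the tRNA gene with the most counts, had 59.2, 74.7, 84.4 and 63.4 CPM with TSP1 and 84.4, 76.5 and 88.3 CPM with PBS. The groups overlapped through TSP1 replicate 3 and PBS replicate 2, and the log2 difference was -0.24 ± 0.111 (SE, edgeR adjusted p = 0.531). mt-Tl1 (leucine), on the plus strand just after mt-Rnr2, had 2.57, 3.50, 3.62 and 3.11 CPM with TSP1 and 4.49, 3.96 and 5.26 CPM with PBS. No TSP1 library reached the PBS range, at a log2 difference of -0.51 ± 0.187 (SE, edgeR adjusted p = 0.407). mt-Tg (glycine) had 0.396 to 1.09 CPM with TSP1 and 1.41 to 1.60 CPM with PBS, from 141 counts in all, and a log2 difference of -0.82. The other 6 tested tRNAs overlapped between the groups, with log2 differences from -0.33 (mt-Tw) to 0.03 (mt-Th).

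Nuclear genes that maintain and express this genome were read from 7 lists, and 0 of their genes passed an FDR of 0.05 with edgeR. The 81 mitochondrial ribosomal protein genes had 54 fitted differences below 0 and 27 above, 7 at an unadjusted p under 0.05 and lower, 0 higher, and a median of -0.05, where 48.9% of all genes were below 0, 5.44% lower and 4.21% higher at that p. Mrpl23, a large-subunit protein, was -0.31 (edgeR adjusted p = 0.315). Of 10 transcription genes, 5 were below 0 and 5 above, with 1 at an unadjusted p under 0.05: Tfb2m, an initiation factor of the mitochondrial RNA polymerase, at -0.27 (edgeR adjusted p = 0.384). Of 22 RNA processing and decay genes, 11 were on each side of 0, with Slirp, which stabilises mitochondrial mRNAs, at -0.48 (edgeR adjusted p = 0.351) as the 1 at an unadjusted p under 0.05. The medians were -0.02 for transcription and 0.00 for processing and decay, beside 0.00 for all genes tested.

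The lists on DNA maintenance and tRNAs held no gene lower at an unadjusted p under 0.05, and each held 1 higher, where 5.44% of all genes were lower and 4.21% higher at that p. Of 11 DNA maintenance genes, 3 were below 0 and 8 above, with Primpol, a primase and polymerase, at 0.76 (edgeR adjusted p = 0.328). The 18 tRNA maturation genes were split 9 and 9, with Qtrt2, part of the queuosine-forming enzyme, at 0.23 (edgeR adjusted p = 0.460). Of 22 aminoacyl-tRNA synthetase and related genes, which charge tRNAs with amino acids, 7 were below 0 and 15 above, with Qrsl1 at 0.36 (edgeR adjusted p = 0.338). Nars2, which charges the tRNA encoded by mt-Tn, was at 0.08 (edgeR adjusted p = 0.881). Cars2 and Yars2, for mt-Tc and mt-Ty, were at 0.07 and -0.0022. Pars2, for mt-Tp, was at 0.26 (edgeR adjusted p = 0.591), with every TSP1 library above every PBS library (4.83% of all genes). Of 10 biogenesis regulators, 6 were below 0 and 4 above, with Gabpb1 at -0.18 (edgeR adjusted p = 0.501) and Ppargc1a, a coactivator that drives mitochondrial biogenesis, at 0.13 (edgeR adjusted p = 0.592). Tfam, which packages mitochondrial DNA, was at -0.09, Polrmt, the mitochondrial RNA polymerase, at 0.02, and Lrpprc, the partner of Slirp, at 0.10. Nars2, Cars2, Yars2, Pars2, Tfam, Polrmt and Lrpprc were chosen after their values were seen.

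Other tests placed the threshold differently for 3 members. DESeq2 called 67 genes lower (0.459% of the 14591 with an adjusted p, and 0.603% in either direction), among them mt-Rnr1, mt-Rnr2 and mt-Tn. edgeR's exact test called 64 genes lower (0.372%, and 0.494% in either direction), again with these 3 among them. limma-voom called 0 members and 0 genes (0%). At an unadjusted p under 0.05, 16 of 33 members were lower with DESeq2, run without the low-count filter (3.14% of 25467 genes). With the exact test 17 of 27 members were lower at that p (5.05% of 17211 genes), and with limma-voom 16 of 27 (5.61%).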

How the data were processed

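RNA-seq was done on mPFC of 7 mice, with 4 in the TSP1 and 3 in the PBS group. The deposited table holds the authors' unnormalized read counts for each gene: its values are whole numbers whose totals differ between libraries. The submitters' processing notes name GRCm38 and mm10, whereas aligner, counter and strand setting are not stated in the sources used here. Every listed gene has at least 5 counts in all. Of the 25467 identifiers, 25375 matched GENCODE M21 (GRCm38), and 92 did not.

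Counts were tested with edgeR 4.0.16 in R 4.3.3 (filterByExpr, TMM, robust quasi-likelihood fit of group, two-sided, Benjamini-Hochberg FDR of 0.05 over 17211 genes). A log2 difference above 0 means higher with TSP1. The median SE was 0.11. Alternatives were RLE scaling, DESeq2 1.42.0 (no adjusted p for 10876 genes), edgeR's exact test, limma 3.58.1 voom, other filters, other library sizes, length and GC correction, a replicate block and leaving out each library. The scripts were tested on simulated counts. Nuclear copies were sought only among the nuclear genes with counts here. The longest GENCODE M21 transcript of each was aligned with blastn 2.17.0 to the mitochondrial genes, at 90% or more identity over 80% or more of the copy. Shared stretches were sought in all annotated nuclear transcripts. Nuclear sequence outside annotated transcripts was not searched. Intervals and floors cover counting error only. Replicates are libraries of different mice, differing by more than sampling noise (chi-square of 4.26 to 14.7 per degree of freedom). The members and lists were chosen with earlier results of these data known. Members described in full were the rRNAs, the abundant mRNAs, those with nuclear copies and the tRNAs of most counts or no overlap between groups. From each nuclear list the gene of smallest p in a direction was named, and others as stated.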

Additional observations from a re-analysis of the deposited data

Results flagged for a closer look

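In 3 of 50 sets of 4 TSP1 values, 1 library lay far from the other 3 for the spread of the set, by Dixon's test. Chance alone marks about 1 set in 20. mt-Nd4l had 69.1 CPM in TSP1 replicate 2, above the 14.1 to 23.3 CPM of the other TSP1 libraries. mt-Tn had 1.00 counts per 1000 mt-Co1 counts in TSP1 replicate 3, below the 1.16 to 1.18 of the others. mt-Te (glutamate) had 0.290 counts per 1000 mt-Co1 counts in TSP1 replicate 3, above the 0.237 to 0.244 of the others. TSP1 replicate 3 is also the library with the highest blood cell markers, whose part in these values was not tested. The groups of 3 PBS libraries were not put to that check. Among them, mt-Co2 had 395 CPM in PBS replicate 1 and 119 and 116 CPM in PBS replicates 2 and 3, as described above.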

How the results depend on the processing

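The count of members past an FDR of 0.05, 0 with edgeR's quasi-likelihood test, was 3 with DESeq2, 3 with the exact test, 2 with no low-count filter (mt-Rnr1 and mt-Tn) and 0 to 1 on leaving out each library, the 1 being mt-Tn without TSP1 replicate 2. Over all genes the count was 88, 85, 19 and 0 to 9, namely 9 without PBS replicate 3 and 1 each without PBS replicate 1 or TSP1 replicate 2. The 12 of 27 members lower at an unadjusted p under 0.05 (5.44% of all genes) became 7 to 16 on leaving out each library (3.70% to 5.88% of all genes). There were 7 of 28 without each PBS replicate. In a fit with the replicate number as a block, TSP1 replicate 4 has no PBS partner and adds nothing to the group difference. With that block, 10 of 27 members were lower at that unadjusted p (4.78% of all genes), and 0 passed the FDR. The log2 difference was 0.0062 for mt-Atp8 and -0.020 for mt-Th. The numbers do not show pairing, since same-numbered libraries correlated at -0.26, -0.03 and 0.01. mt-Th was also at -0.023 with limma-voom. Scaling by mitochondrial mRNA moved the median of all genes to 0.26 and gave 0.041 for mt-Tm, 0.050 for mt-Nd2, 0.13 for mt-Atp8, 0.065 for mt-Co3, 0.014 for mt-Nd3, 0.092 for mt-Nd4l, 0.0047 for mt-Nd4, 0.019 for mt-Cytb and 0.0060 for mt-Tp, while mt-Tn was at -0.42. Leaving out each library turned the sign of mt-Atp8 (-0.32 to 0.015), mt-Co3 (-0.38 to 0.17), mt-Nd4l (-0.86 to 0.20), mt-Th (-0.23 to 0.20) and mt-Tl2 (-0.54 to 0.024). The cause of these changes was not tested, except that scaling by mitochondrial mRNA by construction sets that sum level. With 3 PBS libraries and few tRNA counts, depth and sample number limit what can be seen of the rarer tRNAs.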

Other observations

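Lars2, the mitochondrial leucyl-tRNA synthetase, had 936, 742, 770 and 556 CPM with TSP1 and 489, 1773 and 1229 CPM with PBS. The groups overlapped, with PBS replicate 1 the lowest and PBS replicate 2 the highest of all 7, and its log2 difference was -0.63 ± 0.457 (SE, edgeR adjusted p = 0.729). It was chosen as the gene of smallest p in the lower direction among the synthetase genes.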
